A study of Rattus norvegicus with 20 samples.

Results

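Receptors for neurotransmitters were measured in the left ventricle of 1 normal and 1 failed Dahl rat heart, for their mRNA and for 8 chromatin marks. Members were every gene with a single symbol in the array's annotation that names a subunit or receptor for GABA (Gabr), glutamate (Gria, Grik, Grid, Grin, Grm), acetylcholine (Chrn, Chrm), serotonin (Htr), dopamine (Drd) or glycine (Glr). The rule found 84 genes among 14217, of which 55 are subunits of channels and 29 are receptors coupled to G proteins. They fall into 11 families: 16 GABA-A and rho subunits, 4 AMPA, 5 kainate, 7 NMDA and 1 delta glutamate subunit, 7 metabotropic glutamate receptors, 16 nicotinic subunits, 5 muscarinic, 14 serotonin and 5 dopamine receptor genes, and 4 glycine receptor subunits. The rule reads symbols only, but for a gene with several probe sets the one brightest for mRNA stands for it, so its mRNA values lean towards the high side.

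The Dahl rat is a strain whose salt-sensitive line becomes hypertensive on dietary salt. The failed heart is labelled CHF (congestive heart failure), and a high-sodium diet is named for its mRNA sample only; the labels do not give the diet of the normal animal or name the Dahl line. The animals were 19 weeks old, except that no age is given for the normal H4ac sample. Of the 10 arrays of a heart, 1 held mRNA, 1 held input DNA (pre-IP, not precipitated), and 8 held immunoprecipitates (ChIP): histone H3 in its acetylated form (H3ac), histone H4 likewise (H4ac), and K4me2, K4me3, K9me2, K9me3, K20me3 and K27me2, methylated lysines whose histone the labels do not name. A single ventricle specimen was used per experiment, and the RNA is labelled as coming from myocytes of the left ventricle. The normal H4ac sample carries pre-IP DNA as its source in 1 label field and acetylated H4 in its other fields, and it was taken as H4ac. With 1 array per assay and heart there is no replicate, so no value below has an error and no comparison has a test: every difference is between arrays, and counts are set beside the same counts over all genes.

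Neurotransmitter receptors turn a released transmitter into an electrical or chemical signal in the receiving cell. Ionotropic receptors are rings of subunits around an ion pore, in which GABA-A and glycine receptors pass chloride, and nicotinic, glutamate and 5-HT3 receptors pass cations. Metabotropic, muscarinic, dopamine and most serotonin receptors act through G proteins instead. In the heart the best known of them is the M2 muscarinic receptor (Chrm2). Through it the vagus nerve slows and weakens the beat by inhibitory G proteins and the potassium channel of Kcnj3 and Kcnj5. Most other members are best known from neurons or skeletal muscle. In most cell types such neuronal genes are kept off, in part by the repressor REST, which binds the RE1 element and brings in deacetylases and the K9 methyltransferase G9a (Ehmt2). Acetylated histones and K4 methylation are found at active genes, while K9 methylation and K20me3 are typical of silent chromatin.

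Promoter windows of 3 members are shown because these genes bound the range of H4ac at the receptor genes: Grik1 and Htr2c had the lowest mean H4ac enrichment of both hearts and Chrnd the highest, among members with 1 window and no value at the measuring floor. Each window runs from 250 bases before to 50 bases after the start of the gene, is read 5′ to 3′ on the gene's strand from RefSeq (build GRCr8), and has each CpG dinucleotide in capitals. The arrays' probes were designed for transcripts, so the ChIP values of a gene were measured under its probes and not in these windows. Grik1, a kainate receptor subunit, lies on the minus strand at chr11:41056454-41056753. Htr2c, the 5-HT2C receptor, lies on the plus strand at chrX:115452940-115453239. Chrnd, the delta subunit of the muscle nicotinic receptor, lies on the plus strand at chr9:95310066-95310365.
Grik1: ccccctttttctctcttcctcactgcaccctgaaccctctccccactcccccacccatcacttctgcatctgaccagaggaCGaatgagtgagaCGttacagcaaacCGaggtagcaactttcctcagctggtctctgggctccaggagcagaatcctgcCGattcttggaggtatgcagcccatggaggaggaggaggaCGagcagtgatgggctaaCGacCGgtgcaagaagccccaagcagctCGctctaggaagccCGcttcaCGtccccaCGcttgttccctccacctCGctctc
Htr2c: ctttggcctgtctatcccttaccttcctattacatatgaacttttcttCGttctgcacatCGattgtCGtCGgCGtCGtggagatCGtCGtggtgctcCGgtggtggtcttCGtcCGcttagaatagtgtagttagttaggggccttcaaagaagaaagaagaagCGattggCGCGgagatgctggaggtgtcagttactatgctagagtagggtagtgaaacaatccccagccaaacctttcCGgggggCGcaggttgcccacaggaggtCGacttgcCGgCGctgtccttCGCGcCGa
Chrnd: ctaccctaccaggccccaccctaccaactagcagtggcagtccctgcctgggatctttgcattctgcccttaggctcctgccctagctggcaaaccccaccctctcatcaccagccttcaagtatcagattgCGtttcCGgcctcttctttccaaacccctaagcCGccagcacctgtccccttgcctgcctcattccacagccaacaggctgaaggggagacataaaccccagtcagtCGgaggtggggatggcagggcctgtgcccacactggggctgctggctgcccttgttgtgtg
The Grik1 window held 12 CpG dinucleotides, the Htr2c window 22 and the Chrnd window 4. The number of CpGs over the number that the window's own C and G content gives (the CpG ratio) was 0.49 for Grik1, 1.03 for Htr2c and 0.16 for Chrnd, at GC contents of 58.7%, 53.7% and 60.0%.

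Most receptor genes had little mRNA in either heart. Levels are intensities scaled so that the median of all probe sets of an array is 100, with values under a floor of 10 set to 10. A gene was called expressed when it was at or above the array median in both hearts, low when it was below in both, and mixed otherwise. Of the 84 members 6 were expressed, against 60.5% of all genes, and 66 were low, which is 78.6% of members against 29.8% of all genes. The median member level was 42.2 in the normal heart and 36.5 in the failed one, and the median over all genes was 180 and 196. The 6 members Chrm1, Chrna3, Chrna4, Chrna9, Chrnb3 and Gabra3 were at the floor in both hearts.

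The expressed members came from 5 families. Grm8, a presynaptic metabotropic glutamate receptor coupled to inhibitory G proteins, had a level of 768 in the normal heart and 389 in the failed one. Its other probe sets read 54.0 and 36.8 in the normal heart and 21.4 and 71.6 in the failed heart, so the high level was seen by 1 of 3 probe sets. Gria3, a subunit of the AMPA receptor that carries fast excitation, had 454 and 400, and its other probe set 201 and 304. It was above the median by both probe sets in both hearts.

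Gabre, the epsilon subunit of GABA-A receptors, had 361 in the normal heart and 127 in the failed one, a difference of -1.5 on the log2 scale. A second Gabre probe set read 19.0 and 52.4, a difference of 1.47 in the opposite direction. The direction for Gabre therefore depends on the probe set, and the mean of both gave -0.02. Grin1, the subunit every NMDA receptor needs, had 183 and 151, against 44.9 and 29.5 by its other probe set.

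Chrnb2, the beta subunit of the common nicotinic receptor of the brain, had 179 in the normal heart and 107 in the failed one. Its usual partner Chrna4 was at the floor in both. Chrna1, the acetylcholine-binding alpha subunit of the muscle receptor, had 137 and 100. The 6 expressed members all had the lower level in the failed heart, although Gria3 turned to 0.21 with its probe sets averaged. Their median difference was -0.60, against 0.23 for all expressed genes.

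Among the receptors with known roles in heart, Chrm2 was at the array median: its mRNA level was 96.9 in the normal heart and 126 in the failed one. Chrm3, the other muscarinic receptor named in heart muscle, had 80.2 and 88.0, both below the median. Its other probe set read 106 and 63.6, on the other side of the median in the normal heart and with the lower level in the failed one. Chrm1 was at the floor of 10 in both, Chrm4 had 11.9 and 10, and Chrm5 had 17.9 and 18.2. Chrm2, the receptor through which the vagus acts, thus crossed the median between the hearts without a 2-fold difference.

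Of the serotonin receptors, Htr4, which raises cyclic AMP, was at the floor of 10 in the normal heart and had 118 in the failed heart. Its other probe set read 26.9 and 11.2, the opposite direction. Htr2a, the 5-HT2A receptor, had 18.7 and 76.5, and its 3 other probe sets disagreed, with 44.7 and 10, with 10 and 39.2, and at the floor in both hearts. Htr2b, a receptor needed for heart development in mice, had 33.4 and 19.1. None of these 3 passed the filter for calls, which asks for a mean level at or above the array median. Htr1b had 106 in the normal heart and was at the floor in the failed one.

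The remaining mixed members were Chrna6, Chrna7, Chrng, Gabrq, Grik5, Grin2b, Grin2c, Htr1f and Htr5a, with levels between 19.7 and 152. Chrna7, whose subunits form a receptor on their own and which is known in macrophages as well as neurons, had 61.3 and 123. Grin2c, an NMDA subunit of the cerebellum, had 152 and 20.2, and Grin2b, a forebrain NMDA subunit, 85.8 and 114, with 119 and 67.9 by its other probe set. Chrng, the fetal subunit of the muscle receptor, had 115 and 93.0, and Chrne, which replaces it after birth, 55.3 and 51.6. Grik5, a kainate subunit that needs a partner such as Grik1 or Grik2, had 111 and 87.0.

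The preset low members kept the same pattern. Grm5, a metabotropic receptor coupled to calcium release, had 16.3 and 39.2, and Gria2, the subunit that makes AMPA receptors impermeable to calcium, 31.9 and 10. Gabrb2, the most common beta subunit of brain GABA-A receptors, had 66.6 and 35.1, and Glra1, the adult glycine receptor subunit of the spinal cord, 54.8 and 79.7. The other probe sets of Grm5 (27.8 and 10.9), Gria2 (10 and 11.4) and Gabrb2 (10 and 26.2) were also below the median and had the opposite direction. The dopamine receptors Drd1 and Drd2 had 12.8 and 14.3 in the normal heart and 10 and 15.5 in the failed heart.

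**Figure D1:**
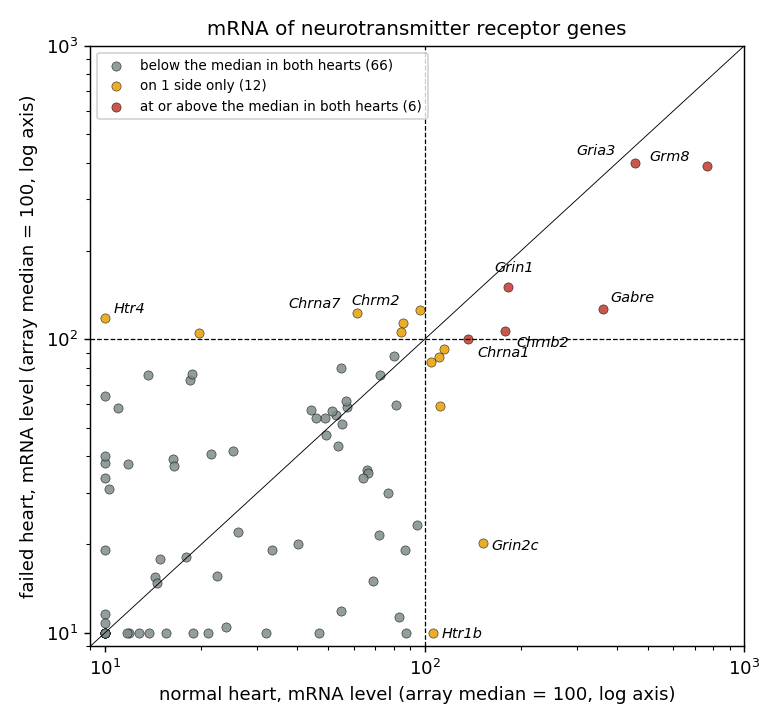
mRNA level of each of the 84 members in the normal heart (horizontal) and the failed heart (vertical), both on log axes with the array median at 100 (dashed lines) and the floor at 10. Of these points 66 lie below the median in both hearts, 6 lie at or above it in both, and Gabre lies below the line of equal levels at 361 and 127.

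Differences in mRNA between the hearts could be called for few receptor genes. Only 8 members passed the level filter: the 6 expressed ones, Chrm2 and Chrng. A 2-fold higher level in the failed heart was found for 0 of them, against 11.9% of all genes that passed, and a 2-fold lower level for 1, Gabre, against 3.07%. The same rule applied to the pre-IP arrays, where a difference is no difference in RNA, called 7.37% of all genes, and 3 of the 27 members that passed, all higher. With values as deposited, Gabre (-1.77), Grm8 (-1.25) and Chrnb2 (-1.02) were called lower. Chrm2 differed by 0.38, Gria3 by -0.18, Grin1 by -0.28, Chrna1 by -0.46 and Chrng by -0.31, all under 2-fold.

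The RNA is labelled as that of ventricular myocytes, and genes that mark other cells were also measured; in such bulk RNA fewer cells of a type and less RNA per cell cannot be told apart. Markers of cardiomyocytes were all expressed, 7 of 7, with summed levels of 108000 and 118000. Of 10 neuron markers 2 were expressed and 6 were low. Their summed level was 817 in the normal heart and 855 in the failed one. The neuronal genes Snap25, of the vesicle fusion machinery, and Elavl4, an RNA-binding protein, had 51.5 and 58.0 in the normal heart. Both were at the floor in the failed heart, and Syt1 had 126 and 67.6. Others of the list went the opposite way: Nefm had 12.3 and 61.1, Nefl 10 and 41.6 and Gap43 128 and 226. Prph, a neurofilament of peripheral nerves, had 234 and 213. Of 5 glia markers 2 were expressed, with summed levels of 1090 and 1890. Cnp, an enzyme of myelin, was the only one called higher in the failed heart, at 466 and 1400. Mbp had 146 and 222 and S100b 93.8 and 120. Sox10, a factor that defines Schwann cells, went the other way with 242 and 46.4, as did Gfap with 142 and 93.5. The 4 macrophage markers summed to 1960 and 9200, the 4 smooth muscle markers to 4970 and 2090, and the 3 endothelial markers to 4640 and 4840. The part of these cells in the receptor values was not tested.

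Acetylation was low at the receptor genes in both hearts. Enrichment of a mark is log2 of the ChIP level minus log2 of the pre-IP level of the same heart, so 0 means equal scaled levels; all marks of a heart share its pre-IP array. For H3ac the median enrichment over the members was -0.68 in the normal heart and -0.53 in the failed one, against 0.05 and 0.04 over all genes. H3ac was below 0 in both hearts at 48 of 84 members, 57.1% against 31.9% of all genes, and above 0 in both at 15, against 36.8%. For H4ac the medians were -0.76 and -1.02, against 0.06 and 0.01. H4ac was below 0 in both hearts at 58 members, 69% against 32.9%, and above 0 in both at 16, against 37.5%. H4ac was at or below -1 in both hearts at 25 members, against 1042 of all 14217 genes. It was at or above 1 in both at no member, but also at only 465 of all genes.

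The ChIP levels themselves were low. The median H3ac level of members was 38.8 in the normal heart and 50.2 in the failed one, against 98.7 and 102 over all genes, and that of H4ac was 42.0 and 36.3, against 98.3 and 98.7. The pre-IP levels of members lay closer to all genes, at 77.6 and 84.0 against 97.9 and 99.7. Values at the floor numbered 9 and 15 of 84 for H3ac and 5 and 12 for H4ac, so some of the lowest enrichments are bounds. With these values left out, 30 members were below 0 for H3ac in both hearts.

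The members with the lowest H3ac and no value at the floor were subunits of GABA-A receptors. Gabra4, an alpha subunit of extrasynaptic receptors, had -2.80 in the normal heart and -2.26 in the failed one, on H3ac levels of 19.5 and 14.2 and pre-IP levels of 136 and 68.2. Gabrg3, a gamma subunit, had -1.86 and -2.85, and Gabrb2 had -1.60 and -2.75. All 3 had low mRNA. The lowest H4ac was at Grik1, with -2.94 and -2.21, where H4ac levels of 15.6 and 18.3 faced pre-IP levels of 119 and 84.2. Htr2c had -2.09 and -2.38 on H4ac levels of 29.0 and 21.3, and Glra1 -2.10 and -2.13 on levels of 16.6 and 20.4. In each of these genes both hearts were on the same side. With probe sets averaged the mean over both hearts went from -2.24 to -1.53 at Htr2c, whose other probe set read -1.18 and -0.48, and from -2.11 to -1.36 at Glra1.

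A minority of receptor genes had acetylation above 0. Of the 5 subunits of the muscle nicotinic receptor, by their chosen probe sets, H3ac was above 0 in both hearts at 3 and H4ac at 4. Chrnd had H3ac of 1.55 and 1.03 and H4ac of 1.21 and 0.93, on H4ac levels of 732 and 491, although its mRNA level was 65.9 and 35.9. Chrne had H3ac of 1.91 and 0.89 and H4ac of 0.42 and 0.43. Chrna1, the expressed subunit, had H3ac of 0.68 and 0.06 and H4ac of 0.63 and 0.29. Chrnb1, the beta subunit of the same receptor, had H3ac of 0.60 and -0.22 and H4ac of -0.40 and -0.32. Its other probe set read H3ac of 1.30 and 0.33 and H4ac of 0.69 and -0.32. Its H3ac thus depends on the probe set, while its H4ac was not above 0 in both hearts by either. Chrng had H3ac of -0.57 and 0.33 and H4ac of 0.87 and 0.58.

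The muscarinic receptors had H3ac above 0 in both hearts at 4 of the 5, with family medians of 0.62 and 0.08, but 2 of the 4 lay within 0.1 of 0, Chrm2 and Chrm3 (0.03 and 0.08), and another Chrm3 probe set read -2.19 and -0.99. Their H4ac was above 0 in both hearts at 2 of 5, near the share of all genes, with medians of 0.42 and -0.24. Chrm2 had H4ac of 0.68 and 1.22, on levels of 205 and 337, while its H3ac was 0.01 and 0.00. Chrm1, whose mRNA was at the floor, had H3ac of 1.97 and 0.60 and H4ac of 1.17 and 0.77. Of further members, Grik4, a kainate subunit like Grik5, had the highest H3ac, 3.17 and 1.62, but its pre-IP levels were 10.6 and 49.4, the first close to the floor.

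**Figure D2:**
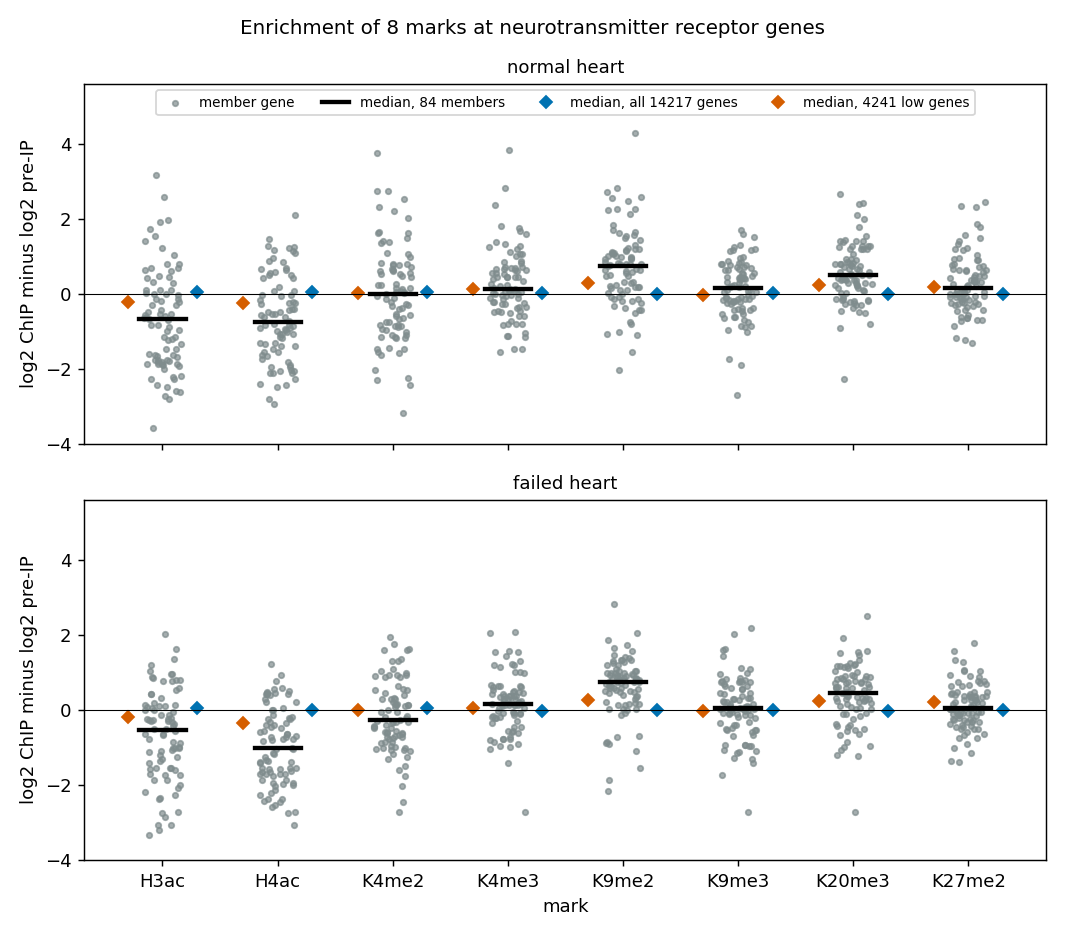
Enrichment (log2 ChIP minus log2 pre-IP, vertical) of 8 marks (horizontal) at each of the 84 members (grey points) in the normal (top) and failed heart (bottom), with the median of the members (black bar), of all 14217 genes (blue) and of 4241 low genes (orange). The members' bars lie below both diamonds for H3ac and H4ac and above both for K9me2 and K20me3 in each heart.

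K9me2 and K20me3 stood above all genes at the receptors. For K9me2 the median enrichment of members was 0.76 in the normal heart and 0.74 in the failed one, against -0.02 and -0.00 over all genes. It was above 0 in both hearts at 57 of 84 members, 67.9% against 32.5%, and below 0 in both at 4, against 33.6%. The 4 were Grid1 (-1.01 and -1.85), Grin1 (-0.76 and -0.69), Htr2b (-0.80 and -1.08) and Chrna5 (-0.32 and -1.55, the failed value at the floor). For K20me3 the medians were 0.51 and 0.46, against 0.00 and -0.02, with 51 members above 0 in both hearts, 60.7% against 29.6%, and 7 below, against 30.8%.

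The K9me2 ChIP levels of members were higher than those of all genes by less than the enrichments, with medians of 114 and 126 against 98.7 and 99.8. For K20me3 they were 109 and 114 against 100 and 102. Taken without the pre-IP array, the members lay 0.21 and 0.33 above the median of all genes for K9me2 and 0.13 and 0.17 for K20me3. With it these offsets were larger, at 0.77 and 0.74 for K9me2 and 0.51 and 0.47 for K20me3. The members' pre-IP levels were also lower than those of all genes, and their part in the offsets was not tested. For H3ac and H4ac the offset was larger without the pre-IP array, at -1.35 and -1.02 and at -1.23 and -1.44.

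The highest K9me2 was at Grik4, with 4.29 and 2.04, again on the pre-IP levels given above. Chrna4, an alpha subunit of brain nicotinic receptors, had 2.70 and 1.86, on K9me2 levels of 167 and 195 and pre-IP levels of 25.6 and 53.9. Grm8 had 0.79 and 2.83, on K9me2 levels of 487 and 1420. Chrm2 had K9me2 of 1.5 and 1.46 on levels of 360 and 399, so the muscarinic receptor of heart had both H4ac and K9me2 above 0 in both hearts. By the chosen probe sets, all 5 dopamine receptor genes had K9me2 and K20me3 above 0 in both hearts, against 32.5% and 29.6% of all genes. Drd3, a dopamine receptor of the limbic brain, had K9me2 of 1.05 and 1.74 on levels of 217 and 364, and Drd4 had 0.18 and 0.39. Other Drd4 probe sets read K9me2 of 0.59 and 1.29 and of -0.40 and -1.83, and another Drd1 probe set -0.42 and 0.71.

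The highest K20me3 was at Gabrg1, with 1.40 and 2.51, where the failed heart's pre-IP level of 10.9 lies next to the floor. Gabrr3, a rho subunit of the retina, had 2.66 and 1.13, and Chrna4 2.38 and 1.05. The lowest values were -0.80 and -0.63 at Chrm4, -0.45 and -0.53 at Chrnb2 and -0.30 and -0.55 at Gabrr2.

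The other 4 marks lay closer to the background of all genes. K4me2 had member medians of 0.01 and -0.27, with 28 members above 0 in both hearts, against 36.3% of all genes, and 34 below, against 31.5%. Grik4 (3.75 and 1.75), Htr2a (2.52 and 1.94) and Drd4 (2.20 and 1.60) were highest, and Chrna7 (-1.02 and -2.44), Gabra4 (-2.01 and -1.07) and Glra2 (-1.44 and -1.49) lowest. The mean of Htr2a over both hearts, 2.23, was 0.61 with its probe sets averaged. K4me3 had medians of 0.14 and 0.17, with 35 members above 0 in both, against 27.7%, and 16 below, against 28.9%. Its highest values were at Grik4 (3.84 and 2.08), Chrna4 (1.80 and 1.45) and Chrnb4 (1.24 and 1.54), and its lowest at Htr2b (-1.46 and -0.76), Gria3 (-1.45 and -0.77) and Gabrr2 (-1.13 and -0.86). Gria3 is an expressed member, and the other 5 genes named here are low.

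K9me3 had medians of 0.15 and 0.06, with 29 members above 0 in both hearts, against 31.2%, and 19 below, against 28.5%. Grm8 (0.84 and 2.17), Grm6 (1.26 and 1.44), the receptor of ON bipolar cells of the retina, and Gabrg1 (0.36 and 2.02) were highest, and Gabra4 (-1.72 and -1.13), Chrnb1 (-1.02 and -1.73) and Gria1 (-0.24 and -1.30) lowest. The mean of Grm6, 1.35, was 0.46 with its probe sets averaged. K27me2 had medians of 0.16 and 0.07, with 31 members above 0 in both, against 33.2%, and 20 below, against 32.1%. Grik3 (1.40 and 1.79), Gabrr3 (1.87 and 1.27) and Chrna4 (2.34 and 0.47) were highest, and Htr1b (-1.23 and -1.37), Grin2a (-1.30 and -0.46) and Grin1 (-0.70 and -0.90) lowest.

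Since most members had little mRNA, the low members were set beside the 4241 low genes of the arrays. The 66 low members had H3ac medians of -0.91 and -0.65, and all low genes -0.21 and -0.17; 40 of the 66 were below 0 in both hearts, against 41.6% of low genes. Their H4ac medians were -0.82 and -1.21, against -0.24 and -0.33, with 46 of 66 below 0 in both, against 47.3%. Their K9me2 medians were 0.76 and 0.74, against 0.28 and 0.26, with 45 above 0 in both, against 44.5%. Their K20me3 medians were 0.54 and 0.58, against 0.23 and 0.23, with 39 above 0 in both, against 41.2%. Without the pre-IP array, the low members lay 0.05 and 0.18 above the low genes for K9me2 and -0.01 and 0.12 for K20me3.

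In K9me2 the 6 expressed members resembled the low members more than the expressed genes of the arrays, but not in every mark. Their K9me2 medians were 0.72 and 0.62, against -0.20 and -0.15 for all 8601 expressed genes, and 4 of the 6 were above 0 in both hearts. Their H4ac medians were -0.57 and -0.55, against 0.18 and 0.15, and 4 were below 0 in both. The low members had H4ac medians of -0.82 and -1.21, so the failed value lay between the groups. Their H3ac medians, those of the expressed members, were -0.66 and 0.41, against 0.17 and 0.15 for expressed genes and -0.91 and -0.65 for low members. Gria3, expressed by both probe sets, had H3ac of -1.87 and -1.41, H4ac of -0.71 and -0.63 and K9me2 of 0.66 and 0.60. Gabre had H3ac and H4ac at the floor in both hearts. These medians rest on 6 genes and describe no more than them.

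Families differed in how far they departed from 0. The GABA-A and rho subunits, which form chloride channels, had H3ac medians of -1.64 and -1.68 with 12 of 16 below 0 in both hearts, H4ac medians of -1.09 and -1.46 with 13 of 16 below, and K9me2 medians of 0.99 and 0.92 with 10 above and 0 below. By the chosen probe sets, the exceptions for H3ac were Gabrd, the delta subunit of extrasynaptic receptors (0.12 and 0.42), and Gabrq, the theta subunit (-0.14 and 0.53). Gabrg1 (-1.63 and 0.41) and Gabrr2 (-0.58 and 0.13) were the others. Other Gabrd probe sets read H3ac of -0.10 and 0.06 and of 0.05 and -0.62, and another Gabrr2 probe set -0.69 and -1.42. By the chosen probe sets, the 4 glycine receptor subunits, also chloride channels, had the lowest H4ac of any family with more than 1 gene, -1.88 and -1.84. All 4 were at or below -1 in both hearts, with the failed Glra2 value at the floor. Their H3ac medians were -1.72 and -1.28 and their K9me2 medians 0.40 and 0.92, again with all 4 on the same side. Another Glra1 probe set read H4ac of -0.14 and -1.05, and another Glra2 probe set -2.11 and -2.92. Other Glrb probe sets read H4ac of -1.61 and -0.40 and of -0.69 and 0.00, the last with K9me2 of -0.69 and 0.25. The size of the H4ac values thus depends on the probe set.

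Among glutamate receptors, the 4 AMPA subunits were all below 0 for H3ac and H4ac and above 0 for K9me2 in both hearts by the chosen probe sets. Their H3ac medians were -1.51 and -1.64. Another Gria2 probe set read K9me2 of -1.72 and 1.49, and another Gria4 probe set H3ac and H4ac of 0.00 in the failed heart. The remaining probe sets of these subunits were on the same sides as the chosen ones. Gria1, which drives strengthening of synapses, was the nearest to 0 at -0.30 and -0.36 for H3ac, and Gria2 the farthest at -2.47 and -3.33, the failed value at the floor. The 7 metabotropic receptors had H3ac medians of -1.75 and -1.74 with 5 below in both hearts, and H4ac medians of -0.83 and -1.55 with 6 below. By its chosen probe set Grm8 was the exception, at 0.86 and 0.45 for H4ac. Its other probe sets read -1.19 and -1.40 and -1.65 and 0.27, so the exception depends on the probe set. NMDA subunits had H4ac medians of -0.91 and -0.72 with 5 of 7 below, but H3ac medians of -0.43 and 0.10. Kainate subunits split, from -3.58 and -3.07 for H3ac at Grik1, where both H3ac values were at the floor, to the high values of Grik4.

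The 16 nicotinic subunits had H3ac medians of -0.56 and -0.23 and H4ac medians of -0.32 and -0.40, closer to 0 than the chloride channels. The subunits of autonomic ganglia were low: Chrna3 had H4ac of -2.39 and -1.66, Chrnb4 -0.48 and -1.87, and Chrna5 -2.28 and -1.55. Both H4ac values of Chrna5 were at the floor. The 14 serotonin receptor genes had H4ac medians of -0.61 and -1.06 with 11 below 0 in both hearts. Htr1a, an inhibitory receptor of serotonin neurons, had -2.80 and -2.42, the failed value above the floor and the normal value at it. Htr2a and Htr4 were the serotonin receptors with H4ac above 0 in both hearts, at 0.50 and 0.51 and at 1.09 and 0.44.

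**Figure D3:**
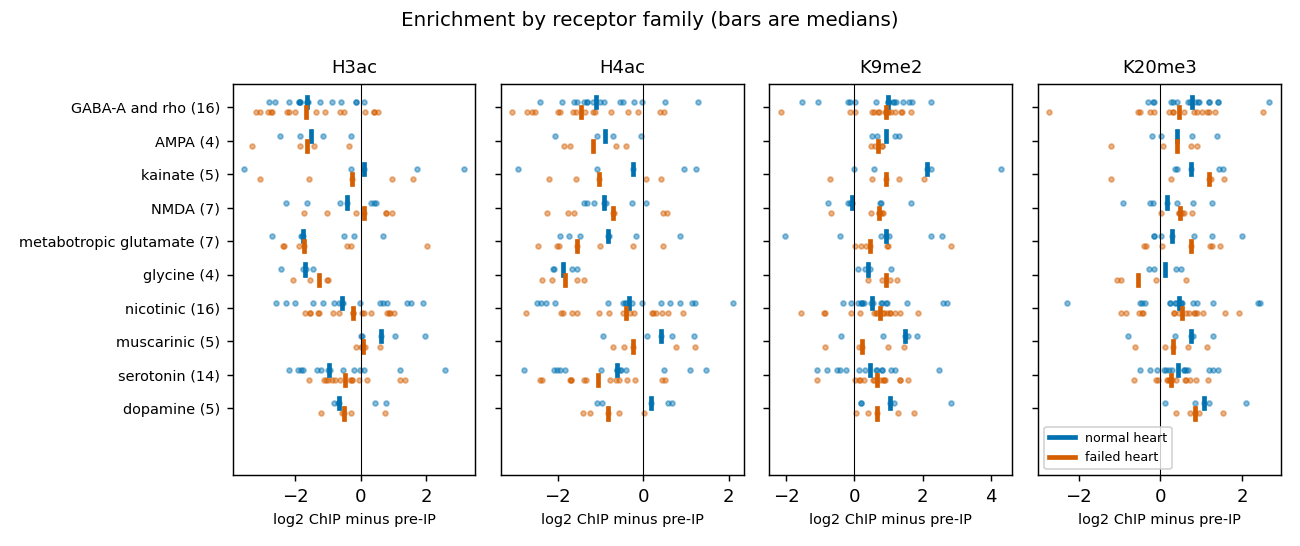
Enrichment (log2 ChIP minus log2 pre-IP, horizontal) of H3ac, H4ac, K9me2 and K20me3 by receptor family (number of genes in brackets; Grid1, alone in its family, is left out), with points for genes and bars for the family median in the normal (blue) and failed heart (orange). The H3ac bars of the GABA-A, AMPA, metabotropic glutamate and glycine families lie between -1.28 and -1.75, and those of the muscarinic family at 0.62 and 0.08.

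By RefSeq's gene order 21 members stand next to another member among protein-coding genes, in 10 groups. In the 4 groups of GABA-A subunits (Gabrg3 and Gabra5, Gabra6 and Gabrb2, Gabrb1 and Gabra4, Gabra2 and Gabrg1), H4ac was below 0 in both hearts for all 8 genes and H3ac for all but Gabrg1. The ganglionic group of Chrna5, Chrna3 and Chrnb4 was below 0 for H3ac and H4ac throughout, from -0.48 to -2.39, with Chrna5 at the floor for both marks. Gria2 and its neighbour Glrb, the anchoring beta subunit of glycine receptors, were also below 0 for both marks in both hearts. This holds for the chosen probe sets: Glrb had -1.67 and -1.02 for H3ac, and another Glrb probe set -2.19 and 0.64. The pair of Chrnd and Chrng went the other way for H4ac, with 1.21 and 0.93 at Chrnd and 0.87 and 0.58 at Chrng, while H3ac at Chrng was -0.57 and 0.33. In the rho pair, H4ac was 0.50 and 0.49 at Gabrr2 and -0.47 and -1.14 at Gabrr1. Other probe sets read 0.35 and -0.62 at Gabrr2 and -0.01 and -0.54 at Gabrr1, so the contrast in the failed heart depends on the probe set. Neighbours share their place in the genome and are not independent of each other.

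Promoter windows were matched for 63 of the 84 members, each with 1 window. Their median CpG ratio was 0.49, against 0.70 for the windows of all genes on the array and 0.49 for those of low genes. Ratios above 0.6, here called CpG-rich, were found in 24 of the 63 windows, 38.1% against 61.3% of array-gene windows and 40.9% of low-gene windows. The members were thus close to other low genes in CpG content. This split was made after mark values had been seen.

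Acetylation was lower at CpG-rich than at CpG-poor members, in the opposite order to other genes. The 24 CpG-rich members had H4ac medians of -0.97 and -1.56, and the 39 CpG-poor ones -0.40 and -0.57. Among low genes the CpG-rich ones had -0.06 and -0.20 and the CpG-poor ones -0.36 and -0.45. For H3ac the medians were -1.35 and -1.17 at CpG-rich and -0.53 and -0.28 at CpG-poor members, against 0.00 and -0.04 and -0.34 and -0.24 at low genes. The difference in H4ac between the CpG classes of members was -0.58 and -0.99, and it ran from -0.31 to -0.74 in the normal and from -0.43 to -1.26 in the failed heart under the other ways of processing. The difference in H3ac was -0.82 and -0.89, and with the floor at 50 it was -0.27 and -0.16. Pre-IP medians of the classes were 74.1 and 79.0 in the normal heart and 78.3 and 81.6 in the failed heart, and 2 and 4 of the CpG-rich and 2 and 6 of the CpG-poor members were at the H4ac floor. Of the genes shown above, Htr2c is CpG-rich with low H4ac and Chrnd is CpG-poor with high H4ac, while Grik1, also low, is CpG-poor. CpG class went in part with receptor family. Gabra4, Gabra5, Gabrb1, Gabrb2, Gabrd, Gabre, Gabrg3 and Gabrq are CpG-rich, while Gabra3, Gabra6, Gabrg1 and the rho subunits are CpG-poor. The subunits of the muscle nicotinic receptor are all CpG-poor. The part of family in the difference between the CpG classes was not tested.

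**Figure D4:**
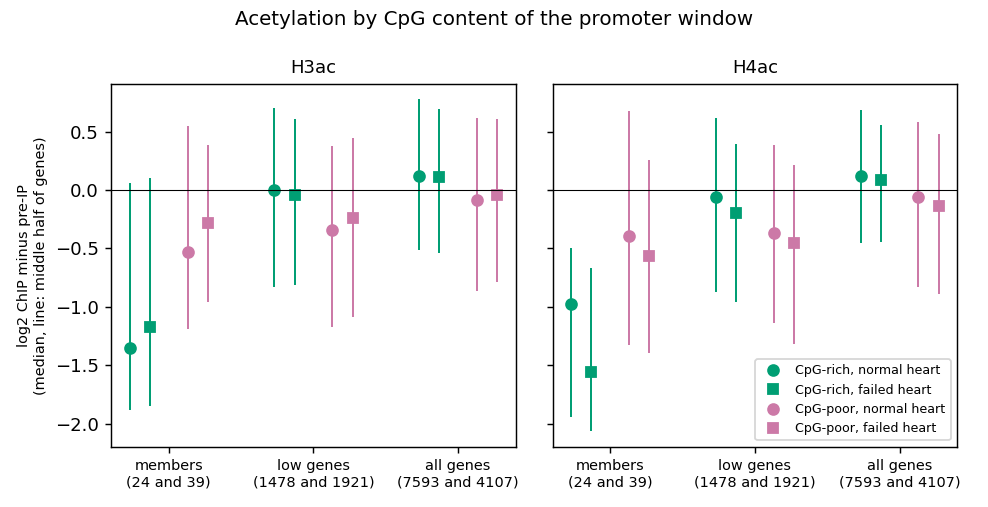
Median enrichment (log2 ChIP minus log2 pre-IP, vertical) of H3ac and H4ac by CpG content of the promoter window (CpG-rich green, CpG-poor purple) for members, low genes and all genes, in the normal (circles) and failed heart (squares), with lines from the lower to the upper quartile of genes. CpG-rich members lie lowest, with H4ac at -0.97 and -1.56, and CpG-rich genes lie above CpG-poor ones among low genes and all genes.

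The windows were searched on both strands for the partial sites of RE1, TTCAGCACC on the left and GGACAGC on the right, which do not overlap each other. The left partial site was in 0 of the 63 member windows and in 0.356% of all windows of the table. The right partial site was in 5, 7.94%, against 6.59% of all windows and 7.87% of those of array genes; the 5 were Drd2, Gabrg3, Gabrr3, Glra2 and Htr2c. The share of the right partial site is near the background.

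Probe sets that were not chosen gave a second look at 30 members with several probe sets. The 40 other probe sets had H3ac medians of -0.93 and -0.53, against 0.08 and 0.12 for 6569 other probe sets of other genes. Their H4ac medians were -0.68 and -0.54, against 0.11 and 0.09, and their K9me2 medians 0.56 and 0.71, against -0.17 and -0.08. Of the 40, 24 had H4ac below 0 in both hearts and 4 above, against 32.9% and 37.5% of all genes by chosen probe sets. K9me2 was above 0 in both hearts at 28 and below at 4, against 32.5% and 33.6% of all genes. The K20me3 medians of the 40 were 0.48 and 0.34, against -0.10 and -0.12. These probe sets were hybridised to the same arrays as the chosen ones, so they are repeated readings of the genes and not of the hearts.

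Other groups of mostly silent genes showed other combinations. The 44 Hox, Pax and Sox genes, developmental transcription factors of which 75.0% were low, had H4ac medians of -0.84 and -0.86, much as the receptor genes did. Their K9me2 medians were -0.04 and -0.49, where the receptor genes had 0.76 and 0.74, and they had K9me3 medians of 0.83 and 1.0 and K27me2 medians of -0.56 and -0.96, where the receptor genes had 0.15 and 0.06 and 0.16 and 0.07. The 58 cytochrome P450 genes, drug and steroid metabolising enzymes of which 65.5% were low, had H3ac medians of -0.54 and -0.51, H4ac of -0.53 and -0.49, K9me2 of 0.29 and 0.73 and K20me3 of 0.14 and 0.57. In the failed heart they were close to the receptor genes in K9me2, and in the normal heart they were lower. With 1 array per assay these differences between groups of genes have no test.

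The order of the members was kept between hearts for acetylation more than for the silent marks. Spearman's rho between the enrichments of the normal and the failed heart over the 84 members was 0.73 for H3ac and 0.65 for H4ac, against 0.53 and 0.56 over all genes. It was 0.11 for K9me2, 0.21 for K20me3 and 0.18 for K9me3, against 0.45, 0.30 and 0.30, and 0.49 for K4me2, 0.33 for K4me3 and 0.32 for K27me2, against 0.51, 0.20 and 0.44. Both hearts were read by the same probes, so these values describe the arrays. K9me2 was above 0 at most members in each heart, but which member had most was not the same.

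**Figure D5:**
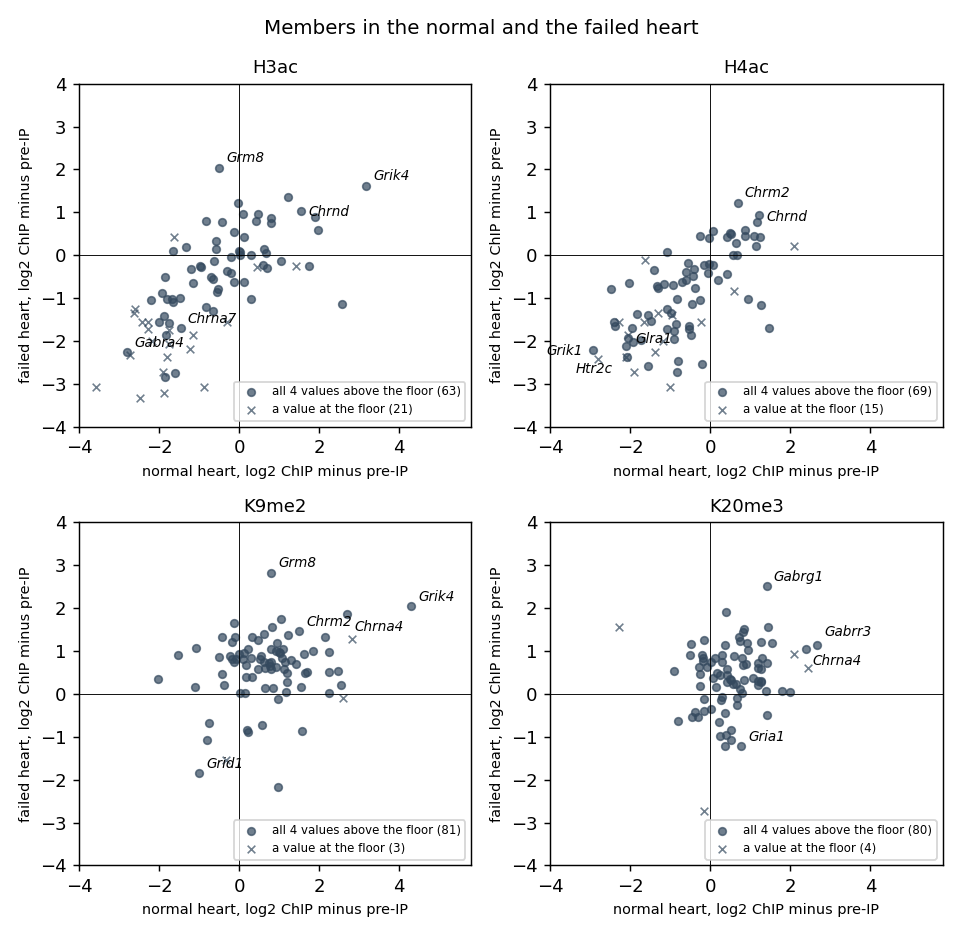
Enrichment (log2 ChIP minus log2 pre-IP) of each of the 84 members in the normal (horizontal) and failed heart (vertical) for H3ac, H4ac, K9me2 and K20me3; crosses have a ChIP or pre-IP value at the floor. Most points lie in the lower left corner for H4ac and in the upper right corner for K9me2, and Grm8 stands high in the failed heart for H3ac (2.04) and K9me2 (2.83).

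The hearts were compared mark by mark with the rule of a 2-fold difference in enrichment at genes whose mean level over the 4 arrays was at or above the array median. For H4ac 1 of 18 members passing the filter was called, 5.56% against 11.3% of all genes. For H3ac 7 of 22 were called, 31.8% against 19.2%, 4 higher and 3 lower in the failed heart. For K9me2 11 of 36 were called (30.6% against 25.1%) and for K9me3 11 of 30 (36.7% against 20.5%), in each case 6 higher and 5 lower. For K20me3 8 of 38 were called (21.1% against 17.3%), for K4me2 4 of 24 (16.7% against 18.1%), for K4me3 6 of 31 (19.4% against 18.6%) and for K27me2 4 of 34 (11.8% against 13.2%). In H3ac, K9me2, K9me3 and K20me3 the calls fell to both sides.

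The differences named next are the largest among members that passed this filter; members with lower levels had larger ones, such as Htr6, with -3.71 for H3ac and -3.16 for H4ac. Among those that passed, Grik5 was lowest or next to lowest in 6 marks: its differences were -1.99 for H3ac, -1.98 for H4ac, -1.77 for K4me2, -2.52 for K4me3, -1.30 for K9me2 and -1.17 for K9me3. Its pre-IP level was 66.8 in the normal heart and 235 in the failed one, while its H3ac level was 222 and 197 and its H4ac level 129 and 115, so the fall in enrichment came with the pre-IP array that all marks share. By its chosen probe set Grm8 had higher enrichment in the failed heart for H3ac (2.53), K4me3 (1.61), K9me2 (2.04) and K9me3 (1.33). Its pre-IP levels were 282 and 199, and its H3ac level was 200 and 818, its K9me2 level 487 and 1420, so the ChIP levels themselves differed by more than the pre-IP levels. Its mRNA was 768 and 389. Another Grm8 probe set also read higher in the failed heart, with H3ac of -0.98 and 2.89 and K9me2 of 0.10 and 4.54. A further one read K9me2 of 2.14 and 1.04, lower in the failed heart, K4me3 of 0.80 and 0.86 and H3ac of -0.99 and -0.22. The K9me2 direction at Grm8 thus depends on the probe set.

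Of the other largest differences among members that passed, Chrnb2 was higher in the failed heart for H3ac, by 1.62, on levels of 78.0 and 211 and pre-IP levels of 137 and 120. Chrm1 was lower for H3ac, by -1.37. Grin3b (0.71) and Chrm2 (0.54) had the largest positive H4ac differences of the 18 members that passed, and Chrna10, a subunit of cochlear hair cells, a negative one of -0.95, all under 2-fold. Grin1 was higher for K4me2 (1.30) and K9me3 (1.37), which were 0.03 and 0.49 with probe sets averaged, and Chrng for K4me2 (1.14), while Gabrr1, a rho subunit, was lower for K4me2 (-1.23), K4me3 (-1.55) and K9me3 (-1.42).

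Gabrp, the GABA-A pi subunit, had the largest positive K9me2 difference of the 36 members that passed, 2.43, from -1.53 to 0.90, on K9me2 levels of 51.0 and 163, and 1.17 with probe sets averaged. Gabrg3 was lower, by -1.18. Htr3a, the subunit that every 5-HT3 channel needs, was higher for K4me3 (1.34), K20me3 (1.66) and K27me2 (1.18), and Chrna3 for K20me3 (1.40). Gria1 was lower for K20me3 (-2.0) and K27me2 (-1.29), with pre-IP levels of 126 and 273, and Grid1 for K20me3 (-1.70). After Htr3a and Gria1, the next largest K27me2 differences each way were at Gabrp (0.86, under 2-fold) and Htr2a (-1.12).

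The genes around these receptors gave mixed mRNA values. Of 10 measured genes of muscarinic signalling 6 were expressed, and 0 of the 6 that passed the filter were called in either direction. Gnai2, the inhibitory G protein alpha subunit, had 666 and 989, and the cyclase Adcy6 1360 and 759. The channel subunits Kcnj5 and Kcnj3 had 249 and 44.6 in the normal heart and 177 and 23.2 in the failed heart, and the regulator Rgs6 290 and 159. Of 15 genes that make or carry transmitters 1 was expressed and 11 were low, and 0 of 3 passing were called. Ddc, the decarboxylase of dopamine and serotonin synthesis, was the expressed one at 242 and 227. This group also had low acetylation, with H3ac medians of -1.10 and -0.62 and H4ac medians of -0.89 and -1.18.

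Of 19 scaffold genes, which hold receptors at the membrane, 9 were expressed, and 10 passed, of which 0 were called higher and 1 lower. That was Shank3, at 1410 in the normal heart and 565 in the failed one (-1.32). Gabarap, which binds GABA-A receptors and serves autophagy, had 1020 and 1770, and Homer1, a partner of metabotropic receptors, 267 and 526, both under 2-fold. Of 11 genes of the REST corepressor complex 9 were expressed and 0 of 9 were called. Rest itself was low, at 56.4 and 62.9, while Hdac2 had 2090 and 2400 and Ehmt2 had 236 and 163.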

How the data were processed

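mRNA, pre-IP DNA and ChIP of 8 marks were measured in 1 normal and 1 failed heart, on 20 Affymetrix Rat Genome 230 2.0 arrays. The authors deposited 1 intensity per probe set and array on a linear scale for 31099 probe sets. Which tool summarised and scaled these intensities is not stated in the sources used here. Per the labels' protocols, RNA was made into biotinylated cDNA and DNA was amplified by T7 transcription. Deposited array medians ran from 189 to 415.

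Each array was scaled to a median of 100, floored at 10 (2.14% to 11.0% of probe sets lay below it) and taken to log2. The platform annotation gave 20826 probe sets 1 gene, 436 several genes, and 9780 were not listed; 57 are controls. Of a gene's probe sets the one with the highest mean mRNA was used, and all 84 member symbols are current in the RefSeq gene table. A difference is failed minus normal, called at 1 on the log2 scale for genes with a mean level over these arrays no lower than the array median. No test was possible with 1 array per assay and heart. Counting was checked on simulated data.

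The members, gene lists and named genes were chosen with earlier results of these data known. Named genes were the expressed members, the members passing the mRNA filter, the 3 highest and 3 lowest members and the 2 largest differences each way of each mark, and a preset list; others are given as examples of their family. Some genes of that list are not reported here. Alternatives were values as deposited, quantile normalization, a floor at 50, averaged probe sets, no level filter, a higher limit for expression, floored values left out and ChIP without pre-IP. Python 3.11.15, pandas 2.3.3, numpy 2.4.6, scipy 1.17.1 and matplotlib 3.10.9 were used.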

Additional observations from a re-analysis of the deposited data

Results flagged for a closer look

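Of the mark values, 7, at 6 receptor genes, lay at or beyond 1 on one side of 0 in the normal heart and on the opposite side in the failed heart. These opposite directions were not tested, since each is a difference between single arrays. Htr6, a serotonin receptor of the brain, had H3ac of 2.58 and -1.13 (difference -3.71) and H4ac of 1.46 and -1.70 (difference -3.16), with pre-IP levels of 12.3 (normal) and 87.1 (failed). Grm3, a metabotropic glutamate receptor, had K27me2 of 1.78 and -1.01 (-2.78), with pre-IP levels of 33.7 and 101. Gabrr3 had H4ac of 1.27 and -1.17 (-2.44), with pre-IP levels of 21.1 and 47.7. Gabra6 had K27me2 of 1.19 and -1.15 (-2.34), with pre-IP levels of 30.4 and 83.8. Gabra3 had K4me3 of -1.14 and 1.20 (2.33), with pre-IP levels of 64.1 and 25.7, and Gabra4 had K9me2 of -1.07 and 1.08 (2.15), with pre-IP levels of 136 and 68.2. In all 7 the pre-IP level was higher in the heart with the lower enrichment, and its part in the difference was not tested.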

How the results depend on the processing

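No paired analysis was possible because each assay has 1 array per heart, and for the same reason no array could be left out. The number of expressed members was 6, and 3 with probe sets averaged or 2 with the limit at 2 times the median. The count of 0 members with higher mRNA became 15 without a level filter, and that of 1 with lower mRNA became 3 with values as deposited, 2 after quantile normalization, 0 with probe sets averaged and 15 without a filter. Without a level filter the calls in mark differences were 24 for H3ac, 20 for H4ac, 28 for K4me2, 19 for K4me3, 31 for K9me2, 26 for K9me3, 24 for K20me3 and 17 for K27me2.

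With the floor at 50, which lies near the members' median acetylation levels and so shrinks these values by construction, the offset of members from all genes was -0.13 and -0.00 for H3ac in the normal and failed heart, so none was left in the failed one, and -0.11 and -0.16 for H4ac; that of low members from low genes was -0.08 and 0.00 for H3ac and -0.08 and -0.04 for H4ac. Members below 0 in both hearts then numbered 30 for H3ac and 36 for H4ac, and 30 for H3ac with floored values left out. Without pre-IP the normal H3ac offset was -1.35 and the low-member offset of normal K20me3 turned to -0.01. Averaging probe sets turned the Htr2a difference in K27me2 to 0.04; the cause was not tested. Among alternatives that use pre-IP, members with K9me2 above 0 in both hearts numbered 54 to 63, and 41 without pre-IP. The CpG comparison and its alternatives were added after seeing the data. Deposited scaling shifted the median mRNA difference of all probe sets by -0.27.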
